A study of Mus musculus with 6 samples.

Results

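The citric acid cycle and the steps that feed pyruvate into it were examined in regulatory T cells (Tregs), a CD4 lineage that depends on Foxp3 and holds other immune responses in check. The 30 genes encode most enzymes of the cycle with related cytosolic ones, the pyruvate dehydrogenase complex with its kinases and phosphatase, and the mitochondrial pyruvate carrier, and were taken by gene name from the 13605 named genes of the deposited count table. All 30 were listed and all 30 passed the filter on low counts. Tregs came from the livers of untreated mice at 14 months of age, 3 libraries from wild-type mice (Altre WT) and 3 from mice lacking the long non-coding RNA Altre (Altre KO, called knockout). The sources used here do not give the kind of knockout allele, nor the strain and sex of the mice. They also do not state that libraries of 1 genotype are from different mice, so a p-value reflects only library-to-library spread, possibly technical. No row bears the name Altre, which was not analysed here, so the genotypes rest on the labels.

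The citric acid cycle runs in the mitochondrial matrix, where acetyl-CoA condenses with oxaloacetate to citrate and is oxidised stepwise, passing electrons to NAD+ and FAD for the respiratory chain. Pyruvate from glycolysis enters the matrix through a carrier of paired MPC1 and MPC2 proteins and is turned into acetyl-CoA by the pyruvate dehydrogenase complex, which kinases switch off and phosphatases switch on. Tregs are known for a greater reliance on oxidative metabolism than conventional effector T cells. The question is whether loss of Altre goes with a different level of any of these transcripts in liver Tregs.

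Total counts over the named genes ran from 25240621 to 30776954 per library, and no member fell below 299 counts in any library. T cell and Treg markers were all measured (7 of 7), with summed levels of 6091 to 7279 CPM in wild type, CPM being counts over the library total on one common scale, and 6292 to 7446 CPM in knockout. Foxp3 had 70.6 to 86.3 CPM in wild type and 81.3 to 144 in knockout. Of the 7 markers, 5 had a higher mean in knockout, while Cd3g and Ikzf2 had a lower one. Cd4 did not overlap, at 739 to 902 CPM in wild type and 991 to 1258 in knockout. Il2ra did not overlap either, at 261 to 359.6 CPM in wild type and 382 to 467 in knockout. The other markers of this list overlapped. Over all genes tested, 10.3% did not overlap. Of 13 macrophage and Kupffer cell markers, 12 were measured and 11 of these 12 had a higher mean in knockout. Their summed level was 194 to 224 CPM in wild type and 236 to 354 in knockout, without overlap. C1qc had a lower mean in knockout, at 6.31 to 32.8 CPM in wild type and 3.95 to 18.2 in knockout. Vsig4, which marks Kupffer cells, was at 0 in wild-type replicates 1 and 2. It was highest in wild-type replicate 3, at 1.66 CPM, and had 0.749 to 1.48 in knockout. The 2 endothelial markers measured, of 4, summed to 95.7 to 126 CPM in wild type and 139 to 158 in knockout, also without overlap. Nearly all of that sum was Pecam1, at 94.6 to 124 CPM in wild type and 139 to 155 in knockout. Stab2 overlapped, at 1.07 to 1.86 CPM in wild type and 0.67 to 2.77 in knockout. CD8 T cell and NK cell markers, 3 of 6 measured, summed to 255 CPM in wild-type replicate 3 and to 77.5 to 125 in the other libraries. Nkg7 alone made up 238 CPM of that replicate's sum. Klrb1c was at its lowest there, at 0.406 CPM against 2.8 to 6.7 in the other libraries. Cd8b1, at 16.0 CPM, lay within their range of 10.3 to 22.1. B cell markers, 4 of 4 measured, summed to 56.6 to 83.2 CPM in wild type and 65.5 to 67.4 in knockout. Most of that sum was Cd79b, at 52.5 to 78.1 CPM in wild type and 58.0 to 63.5 in knockout. Of 10 hepatocyte markers only Trf was analysed here, at 0.702 to 2.55 CPM. The part of other cell types in the values below was not tested. In bulk libraries, fewer cells of a type and less RNA per cell cannot be told apart.

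No gene of the cycle or of pyruvate entry passed an adjusted p of 0.05 between the genotypes (0 of 30, edgeR quasi-likelihood test with Benjamini-Hochberg adjustment over 12789 genes), and the background was the same, with 0.0% of all genes called. None of the 30 had an unadjusted p under 0.05 in this test either, where 5.82% of all genes tested did (744 genes). DESeq2 and limma-voom also called 0 of the 30, against 0.339% and 0.0% of all genes. Their unadjusted p for Idh1 was 0.0499 by DESeq2 and 0.094 by limma-voom. By edgeR the smallest unadjusted p among the members was 0.0603, for Idh1, with an adjusted p of 0.866. The log2 fold changes, knockout over wild type, ran from -0.20 for Dld to 0.64 for Idh1, with a median of 0.062 beside 0.0039 over all genes tested. A mean higher in knockout was found for 20 of the 30 (66.7%), against 50.8% of all genes tested, and for 17 to 24 of the 30 under the alternative settings. The median size of a member's log2 fold change, either way, was 0.10, beside 0.19 over all genes tested and 0.12 over the 6998 genes whose mean CPM lay in the members' range of 15.1 to 759 CPM.

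Like the p-values, the intervals reflect only library-to-library spread, so they need not bound a difference between mice. For 23 of the 30 genes (76.7%) the 95% interval of the fold change lay inside 1.5-fold in both directions (0.58 on the log2 scale), against 34.4% of all genes tested. The median SE was 0.14 for the members and 0.25 for all genes tested. These shares are not matched for expression level, so their difference cannot be read as a trait of the pathway. The 7 members whose interval reached further were Idh1, Idh2, Suclg2, Dlat, Pdhx, Pdk2 and Pdpr. In each of these the upper end, the side of higher expression in knockout, passed the limit. The SD within a genotype was also lower for the members, but the other genes share only their range and are not matched for level. The median SD of log2 CPM within a genotype was 0.16 for the members, 0.20 for genes in their range of mean CPM and 0.30 for all genes tested.

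**Figure D1:**
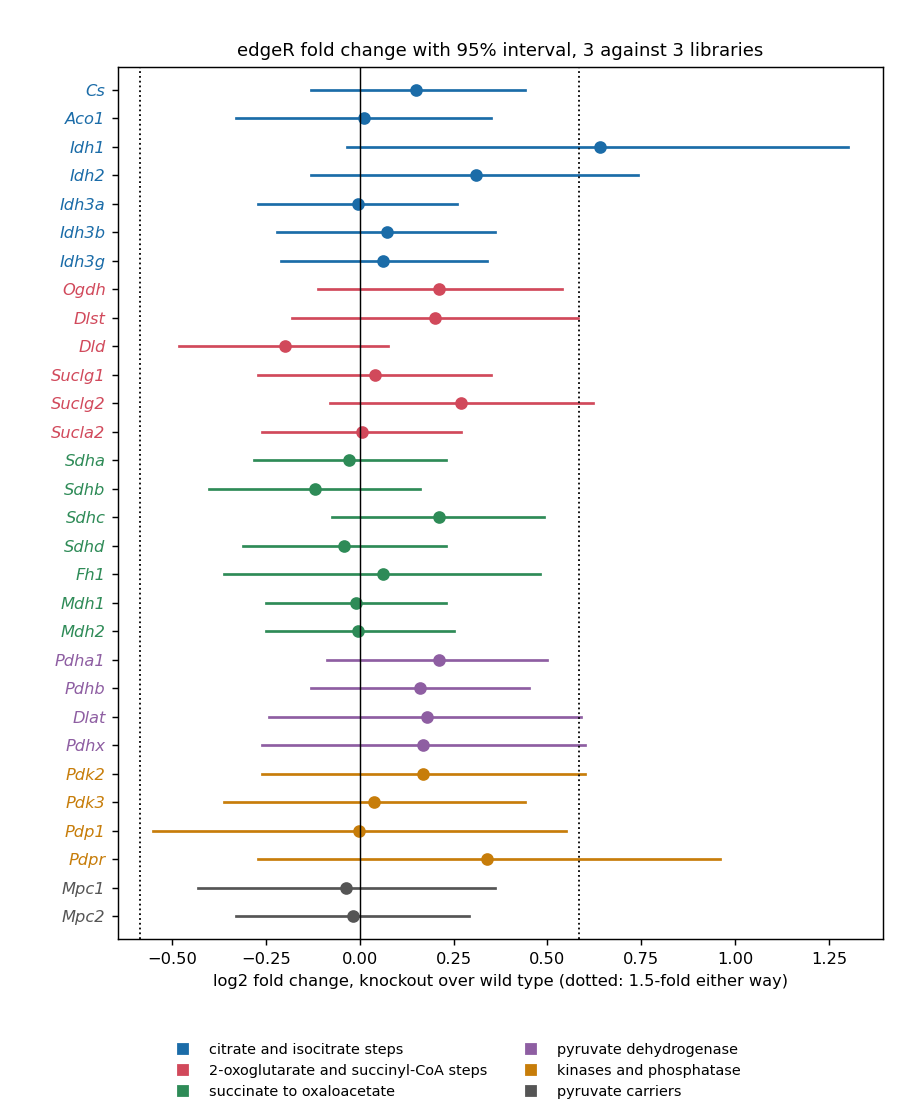
Log2 fold change of each of the 30 genes, knockout over wild type (x axis), with its 95% interval from the edgeR quasi-likelihood fit to 3 against 3 libraries, coloured by role. Every interval includes 0, and 23 of 30 lie between the dotted lines that mark 1.5-fold either way.

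Only Suclg2 and Dld had genotypes that did not overlap (2 of 30, 6.67%), as was so for 10.3% of all genes tested. Suclg2 was the 1 member wholly higher in knockout, as were 5.6% of all genes tested, and Dld the 1 wholly lower, as were 4.67%. In the other 28 members the ranges of the genotypes overlapped. The highest of the 6 libraries was a knockout library for 17 of the 30, and for 50.7% of all genes tested. Knockout replicate 1 was the highest library for 8 members, among them Cs, Ogdh, Sdha, Sdhc and Dlat, and for 19.4% of all genes tested. Replicate 2 was the highest library in both genotypes for 8 members (26.7%, against 12.6% of all genes tested), which were Suclg1, Sucla2, Sdhb, Sdhd, Mdh2, Pdha1, Mpc1 and Mpc2.

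**Figure D2:**
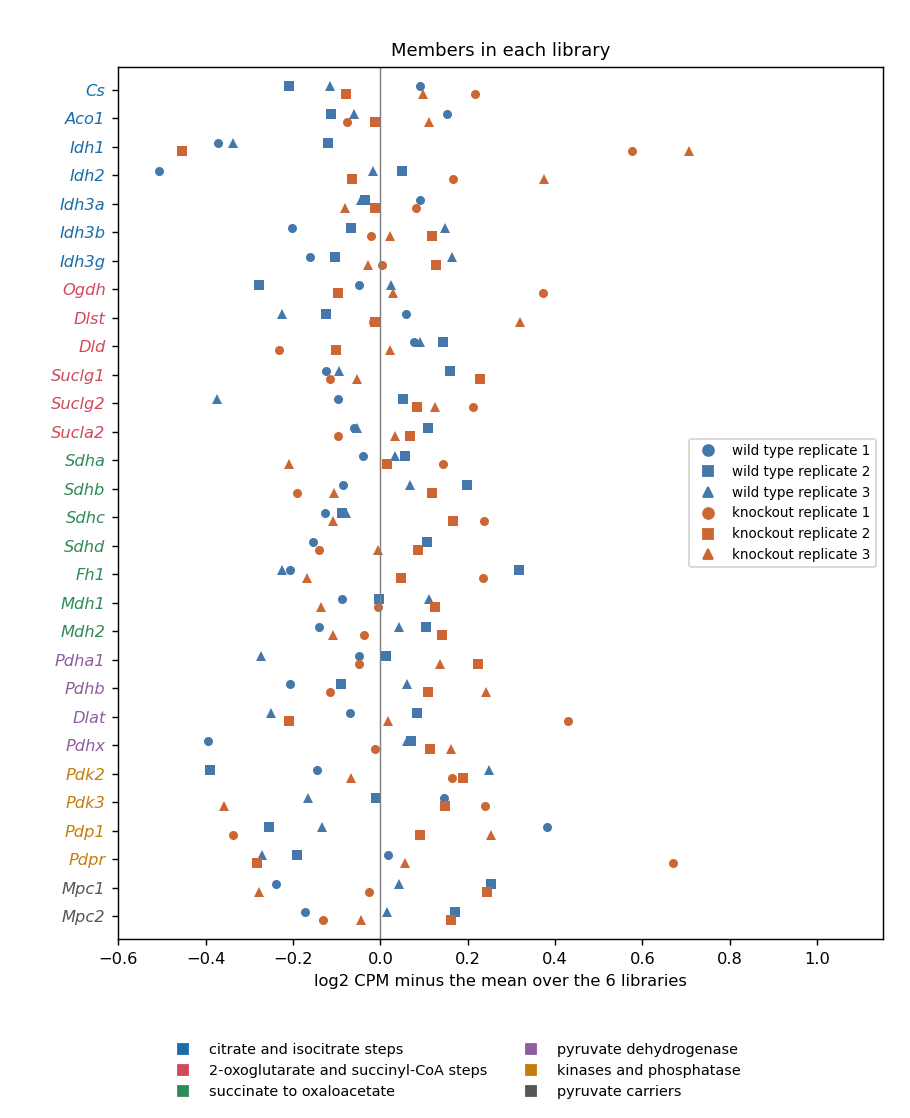
Log2 CPM of each gene in each of the 6 libraries, as the difference from its mean over the libraries (x axis), wild type in blue and knockout in orange, with 1 symbol per replicate number. The genotypes separate only for Suclg2 and Dld, and the knockout libraries of Idh1 are the most widely spread, with replicates 1 and 3 far above replicate 2.

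Levels differed far more between members than between genotypes. Per kilobase of exon, and as the mean of 6 libraries, Mdh2 was the highest at 522 CPM per kilobase and Pdpr the lowest at 3.06, with the median member at 51.4 and the median of 11551 tested genes with a length at 6.82. In all, 28 of the 30 lay above that median, the exceptions being the phosphatase genes Pdp1 (4.85) and Pdpr, at percentiles 42.9 and 34.1. Complex II, which carries electrons from succinate into the respiratory chain, had 328 CPM per kilobase for Sdhb, 204 for Sdha, 201 for Sdhd and 50.6 for Sdhc. The ranges of Sdha (176 to 225) and Sdhd (180.4 to 216) over the libraries overlapped, while Sdhb lay above both and Sdhc below both in the 6 libraries. In the pyruvate dehydrogenase complex the order was Pdhb (129), Pdha1 (50.8), Dlat (15.9) and Pdhx (7.08). Among the subunits of the NAD-dependent isocitrate dehydrogenase it was Idh3g (167), Idh3b (80.8) and Idh3a (52.0). The ranges of neighbours over the 6 libraries did not overlap in either order. Lengths were of the union of annotated exons. With the longest coding transcript instead, a choice made after seeing the data, Pdhx stood at 11.1 and Mpc1 at 97.8 in place of 64.0, while the other 28 moved by less than their spread over libraries.

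**Figure D3:**
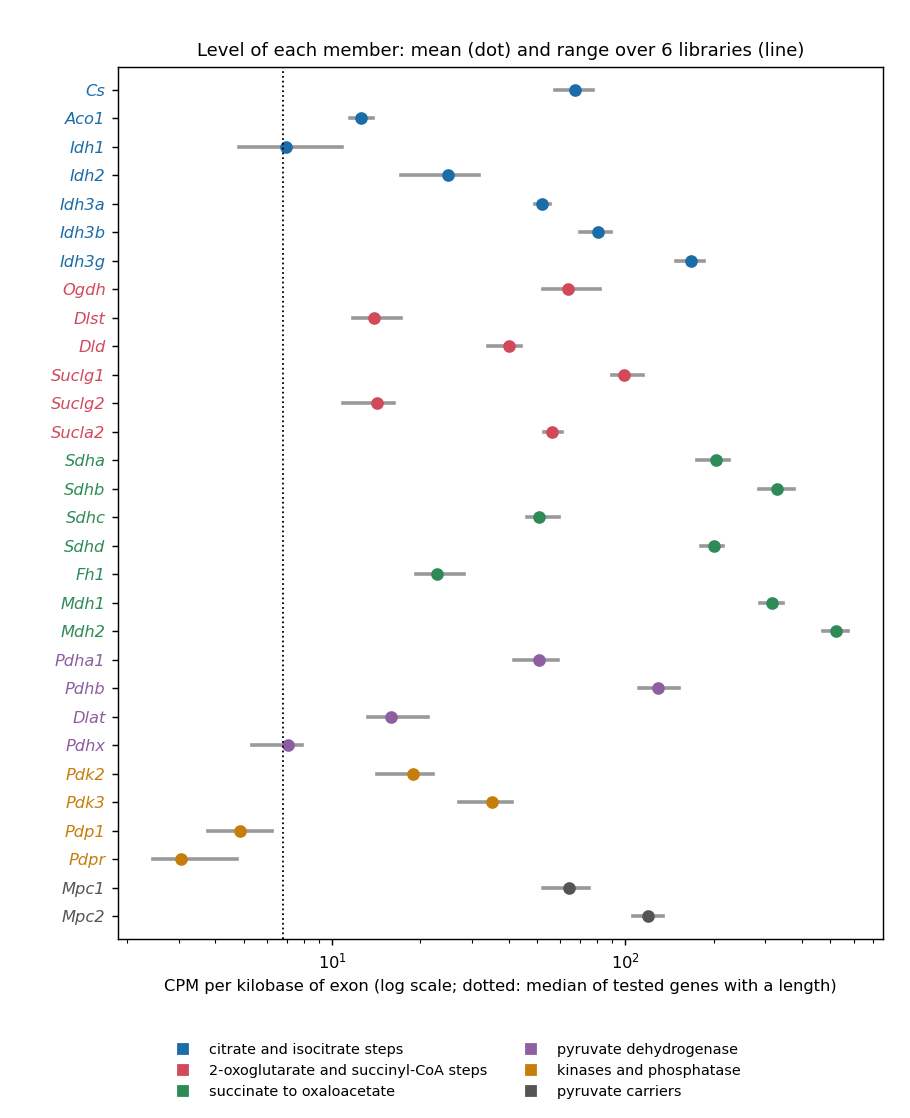
Level of each gene in CPM per kilobase of exon (x axis, log scale), as the mean (dot) and range (line) of all 6 libraries, coloured by role. Malate dehydrogenases and most complex II subunits are the highest, between 201 and 522, and the phosphatase genes Pdp1 and Pdpr lie below the dotted median of tested genes, 6.82.

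The citrate and isocitrate steps held 7 members, 6 with a higher mean in knockout, and their summed level was 733 to 804 CPM in wild type and 800.5 to 836 in knockout. Cs (chromosome 10, 128337734 to 128362479, GRCm38) encodes citrate synthase, which starts the cycle. In replicates 1, 2 and 3 of wild type it stood at 208, 169 and 180.5 CPM, and in those of knockout at 227, 185 and 209 CPM. Values of 3 libraries follow this replicate order throughout. The genotypes overlapped, and the log2 fold change was 0.15 ± 0.13 (SE) with an adjusted p of 0.964 (edgeR, Benjamini-Hochberg).

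Idh1 (chromosome 1, 65158616 to 65186500, GRCm38) encodes the cytosolic and peroxisomal isocitrate dehydrogenase that makes NADPH. Its wild-type replicates had 12.6, 15.01 and 12.9 CPM and its knockout replicates 24.3, 11.9 and 26.6 CPM. Knockout replicates 1 and 3 were above every wild-type library, and knockout replicate 2 was below every one. The log2 fold change was 0.64 with a 95% interval from -0.033 to 1.30. Without knockout replicate 2 it was 0.90, with an unadjusted p of 0.00356 by edgeR and no call after adjustment, and without knockout replicate 3 it was 0.43. The macrophage markers summed to 236, 350.2 and 354 CPM in knockout replicates 1, 2 and 3. The part of these cells in the Idh1 values was not tested.

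Idh2, the mitochondrial NADP-dependent enzyme, had 30.04, 44.1 and 42.1 CPM in wild type and 47.8, 40.7 and 55.2 in knockout, which gave 0.31 ± 0.20 (SE) as the log2 fold change. Its lowest library was a wild-type one and its highest a knockout one, and the others were mixed. The 3 subunit genes of the NAD-dependent enzyme of the cycle were close between genotypes. Idh3a, the catalytic subunit, had 134 ± 6.97 CPM in wild type and 134 ± 7.77 in knockout (mean ± SD, n = 3). Idh3b had 127 ± 15.9 and 134 ± 6.58 CPM, and Idh3g had 217.2 ± 26.7 and 227 ± 13.4 CPM, so both differed by less than their SD. Aco1, a cytosolic aconitase that doubles as the iron-sensing RNA-binding protein IRP1, had 47.6 ± 4.73 and 48.0 ± 3.24 CPM.

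The 2-oxoglutarate and succinyl-CoA steps held 6 members, 5 with a higher mean in knockout, and their summed level was 725, 736 and 728 CPM in wild type and 805, 758 and 768 in knockout. The genotypes do not overlap in that sum, but without Ogdh they do, at 442 to 504 CPM in wild type and 441 to 495 in knockout. Ogdh, the first component of the 2-oxoglutarate dehydrogenase complex, took the most CPM of them. It had 272, 232 and 286 CPM in wild type and 364, 263 and 287 in knockout, so that knockout replicate 1 stood highest and the other libraries were mixed. Its log2 fold change was 0.21 with a 95% interval from -0.11 to 0.54, and it was 0.064 without knockout replicate 1. Dlst, the second component, had 35.8 ± 3.57 CPM in wild type and 41.0 ± 5.68 in knockout.

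Dld (chromosome 12, 31331277 to 31351453, GRCm38) encodes dihydrolipoamide dehydrogenase, the component that the 2-oxoglutarate and pyruvate dehydrogenase complexes share. It had 107, 112 and 108 CPM in wild type and 86.3, 94.5 and 103 in knockout. The knockout libraries were all below the wild-type ones, with a gap between the nearest libraries smaller than the spread within knockout. Its log2 fold change was -0.20 ± 0.12 (SE), with a 95% interval from -0.48 to 0.076 and an adjusted p of 0.926 (edgeR, Benjamini-Hochberg).

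Succinyl-CoA ligase pairs the common subunit Suclg1 with either Suclg2, which gives the enzyme that forms GTP, or Sucla2, which gives the one that forms ATP. Suclg2 (chromosome 6, 95473009 to 95718800, GRCm38) had 49.6, 55.0 and 40.9 CPM in wild type and 61.4, 56.2 and 57.8 in knockout. The knockout libraries were all above the wild-type ones, knockout replicate 2 by little. The log2 fold change was 0.27 ± 0.16 (SE), with a 95% interval from -0.080 to 0.62 and an adjusted p of 0.914 (edgeR, Benjamini-Hochberg). Sucla2 had 125 ± 8.63 and 126 ± 7.30 CPM, and Suclg1 had 148 ± 16.6 and 152 ± 19.9 CPM.

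Promoter windows, from 250 bases before to 50 bases after the RefSeq start on GRCm38.p6, were matched for 27 of the 30 genes, the others being Idh3a, Sdhc and Pdp1. The windows of Suclg2 and Dld are shown because these were the genes whose genotypes did not overlap, and that of Sdha because it held the most matches to the NRF1 motif, a factor known to bind promoters of nuclear genes for mitochondrial proteins. Each is written 5′ to 3′ on the gene's own strand, with capitals marking every match on either strand to GCGCA, any base and GCGC (NRF1), CCGGAAG (ETS factors such as GABP), TCAAGGTCA (ERR receptors), CCAAT (NF-Y), GGGCGG (SP factors) or AAGATGGC (YY1). Adjoining capitals are neighbouring matches, which overlap by 1 base in Suclg2.
Suclg2 promoter, chr6:95718797-95719096, minus strand: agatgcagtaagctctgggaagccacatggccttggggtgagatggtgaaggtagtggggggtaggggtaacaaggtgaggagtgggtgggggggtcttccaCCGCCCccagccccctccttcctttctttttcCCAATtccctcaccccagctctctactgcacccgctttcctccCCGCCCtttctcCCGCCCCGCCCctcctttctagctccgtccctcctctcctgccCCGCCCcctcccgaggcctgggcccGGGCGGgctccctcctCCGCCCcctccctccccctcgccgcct
Dld promoter, chr12:31351422-31351721, minus strand: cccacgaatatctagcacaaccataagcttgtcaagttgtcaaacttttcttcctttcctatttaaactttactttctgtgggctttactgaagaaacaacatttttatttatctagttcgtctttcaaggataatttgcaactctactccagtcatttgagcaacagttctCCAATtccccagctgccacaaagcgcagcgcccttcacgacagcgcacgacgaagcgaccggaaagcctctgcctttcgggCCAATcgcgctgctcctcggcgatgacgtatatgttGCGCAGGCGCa
Sdha promoter, chr13:74350191-74350490, minus strand: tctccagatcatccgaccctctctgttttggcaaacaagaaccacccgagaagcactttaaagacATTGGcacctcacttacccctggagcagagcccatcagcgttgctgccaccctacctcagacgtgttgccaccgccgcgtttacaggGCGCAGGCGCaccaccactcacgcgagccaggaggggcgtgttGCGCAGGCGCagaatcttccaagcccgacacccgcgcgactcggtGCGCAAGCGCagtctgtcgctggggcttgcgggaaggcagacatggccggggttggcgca

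The Suclg2 window held 7 SP matches and 1 CCAAT match, while the Dld window held none of SP, with CCAAT boxes and an NRF1 match near its end. GC content was 67.7% in Suclg2, 62.7% in Sdha and 47.0% in Dld. Over the 27 genes, an NRF1 match was found for 4 (14.8%), beside 5.19% of the 27025 genes with a window, and an ETS match for 6 (22.2%, beside 9.93%). SP matches were found for 20 (74.1%, beside 38.2%), and CCAAT for 17 (63.0%, beside 41.1%). A match to the ERR motif was found for Sdhd alone (3.7%, beside 0.466%), and one to the YY1 motif for Idh3g alone (3.7%, beside 3.19%). The median GC content of the members' windows was 62.0%, and that of all windows 52.7%. The shares are not matched for GC content or expression level, so their differences cannot be read as a trait of the pathway. A match is a run of letters and does not show binding.

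From succinate to oxaloacetate, the knockout mean was the higher one for 2 of 7 members and the lower one for 5, with log2 fold changes from -0.12 to 0.21 and summed levels of 2665 to 3017 CPM in wild type and 2619 to 3071 in knockout. Sdha, the flavoprotein of complex II, had 575, 615 and 605 CPM in wild type and 653, 597 and 511 in knockout, so that knockout libraries were both the highest and the lowest. Sdhb, the iron-sulfur subunit, had 352, 428 and 391 CPM in wild type and 327, 405 and 347 in knockout, which gave -0.12 ± 0.12 (SE) as the log2 fold change. The genotypes overlapped, and in each of them replicate 2 was the highest.

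Sdhc, 1 of 2 membrane anchors of complex II, had the smallest p of this group. It had 146, 150.1 and 151 CPM in wild type and 188, 179 and 148 in knockout. Wild-type libraries were close together, and knockout replicate 3 was close to them while replicates 1 and 2 were higher. The log2 fold change was 0.21 with a 95% interval from -0.074 to 0.49 and an unadjusted p of 0.133 (edgeR). Without knockout replicate 3 it was 0.30, with an unadjusted p of 0.0486 by edgeR and no call after adjustment. Without knockout replicate 1 it was 0.14. The other anchor, Sdhd, had 252 ± 25.5 CPM in wild type and 244 ± 19.1 in knockout. Fh1, fumarase, had 58.9 ± 13.2 and 61.5 ± 8.50 CPM.

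Mdh2, the mitochondrial malate dehydrogenase that closes the cycle, was the most abundant member. It had 687, 814 and 779.6 CPM in wild type and 738, 835 and 702 in knockout, so the ranges overlapped. Its log2 fold change was -0.0037 with a 95% interval from -0.25 to 0.25. Mdh1, the cytosolic enzyme of the malate-aspartate shuttle, had 674 ± 46.8 CPM in wild type and 669.9 ± 60.7 in knockout, which gave -0.0098 ± 0.11 (SE) as the log2 fold change.

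All 4 genes of the pyruvate dehydrogenase complex had a higher mean in knockout, with log2 fold changes from 0.16 to 0.21, and none passed the test. A higher mean in knockout was found for 50.8% of all genes tested. The summed level of the 4 was 388, 424 and 402 CPM in wild type and 431, 462 and 482 in knockout. This sum did not overlap, although each of the 4 genes overlapped on its own. It is 1 of 6 such sums, and 10.3% of all single genes tested did not overlap. The mean of the sum was 53.4 CPM higher in knockout, and 31.8 CPM higher with Pdhb left out of it. Leaving the member of most CPM out of such a sum was chosen after seeing the data. Pdha1, the regulated E1 alpha subunit on chromosome X, had 139, 145 and 119 CPM in wild type and 139, 168 and 158 in knockout. The value of knockout replicate 1 lay among the wild-type ones, and the log2 fold change was 0.21 ± 0.13 (SE) with an adjusted p of 0.938 (edgeR, Benjamini-Hochberg). Exons of Map3k15 on the opposite strand cover 21.2% of the Pdha1 exon length, so its reads are uncertain if counting ignored strand.

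Pdhb, the E1 beta subunit, had 168, 182 and 202 CPM in wild type and 179, 209 and 229.2 in knockout. Its log2 fold change was 0.16 with a 95% interval from -0.13 to 0.45. Dlat, the E2 core that transfers the acetyl group, had 60.3 ± 6.94 CPM in wild type and 68.2 ± 15.6 in knockout. Knockout replicate 1 held its highest value, 85.4 CPM, and without that library the log2 fold change of Dlat was -0.016. Pdhx, which binds Dld to the core, had 26.2 ± 4.57 and 29.4 ± 1.81 CPM.

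Among the regulators of the complex, the kinases Pdk2 and Pdk3 switch it off and the phosphatase Pdp1 switches it on, Pdpr being the regulatory subunit of the phosphatase. Of these 4, Pdk3 had the highest level, 35.0 CPM per kilobase, with 81.1, 72.8 and 65.4 CPM in wild type and 86.6, 81.3 and 57.2 in knockout. Knockout libraries were again the highest and the lowest, and the log2 fold change was 0.038 ± 0.18 (SE). Pdk2 had 37.7, 31.8 and 49.5 CPM in wild type and 46.7, 47.5 and 39.8 in knockout, and its highest and lowest libraries were both wild type.

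Pdp1 had the same mean in both genotypes, 21.9 ± 5.40 CPM in wild type and 21.9 ± 4.39 in knockout, but its interval was wide, from -0.55 to 0.55 on the log2 scale. Pdpr had 14.9, 12.9 and 12.2 CPM in wild type and 23.4, 12.1 and 15.3 in knockout. Knockout replicate 1 stood above the other 5 libraries, and the log2 fold change was 0.34 with a 95% interval from -0.27 to 0.96, which holds both 0 and a 1.5-fold higher level. Without knockout replicate 1 the log2 fold change of Pdpr was 0.042.

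The pyruvate carrier genes had slightly lower means in knockout, with log2 fold changes of -0.037 for Mpc1 and -0.019 for Mpc2. Mpc1 had 78.9, 111 and 95.9 CPM in wild type and 91.4, 110.3 and 76.8 in knockout. Mpc2 had 108, 137 and 123 CPM in wild type and 111, 136 and 118 in knockout. Both were highest in replicate 2 of each genotype, and the genotypes overlapped. For Mpc1, exons of 4930506C21Rik on the opposite strand cover 23.4% of the exon length, and 1 named pseudogene of Mpc1 is annotated, so its counts are the less certain of the 2.

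Within a library, 5 pairs of related genes were compared as a ratio of CPM. A ratio of Suclg2 to Sucla2 of 0.413, 0.407 and 0.340 in wild type and 0.523, 0.428 and 0.450 in knockout was the only 1 of the 5 without overlap. The mean log2 ratio was -1.38 ± 0.16 in wild type and -1.10 ± 0.15 in knockout (SD, n = 3), a difference of 0.27. The exact two-sided permutation p was 0.10, which is the smallest that 3 against 3 libraries allow, and 0.50 after Benjamini-Hochberg adjustment over the 5 ratios. Per kilobase, Suclg2 stood at 0.201 to 0.310 of Sucla2 over the 6 libraries.

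Mdh1 to Mdh2 had the narrowest range of the 5 ratios over the 6 libraries, at 0.822 to 0.928 in wild type and 0.869 to 0.906 in knockout. Their log2 ratio differed by -0.0075 between genotypes (exact permutation p = 0.90). Idh1 to Idh2 ran from 0.306 to 0.419 in wild type and from 0.293 to 0.508 in knockout (exact permutation p = 0.50). Pdk3 exceeded Pdk2 in all 6 libraries, at 1.32 to 2.29 times its CPM in wild type and 1.44 to 1.85 times in knockout (exact permutation p = 0.60). Mpc1 to Mpc2 was 0.729 to 0.806 in wild type and 0.653 to 0.824 in knockout (exact permutation p = 1.0).

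**Figure D4:**
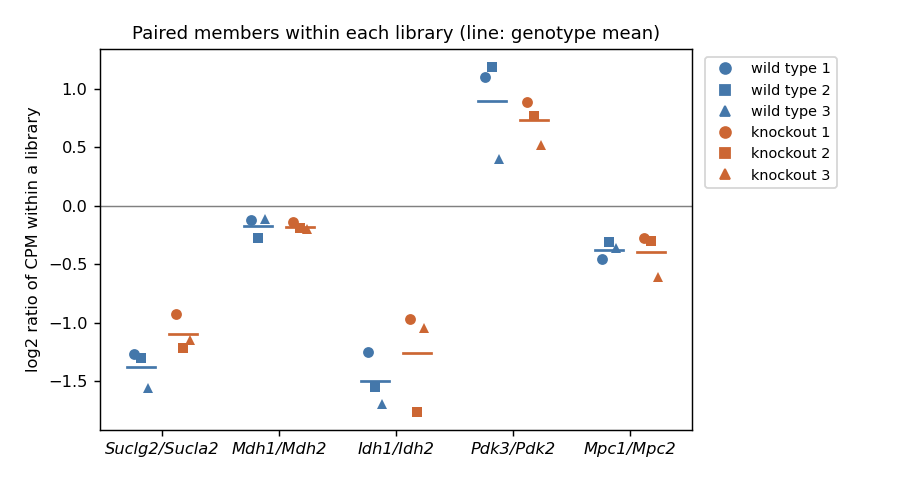
Log2 ratio of CPM between paired members within each library (y axis) for 5 gene pairs (x axis), wild type in blue and knockout in orange, with a line at each genotype mean. Only Suclg2 to Sucla2 has knockout libraries all above wild type, between -1.22 and -0.93 against -1.56 and -1.27.

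Around the cycle, a further list of 39 genes for anaplerosis, shuttles, lipoylation, complex II assembly and 2-hydroxyglutarate removal was examined. Of these 32 were listed and 31 tested, 18 higher by mean in knockout and 13 lower, at a median log2 fold change of 0.10. None passed an adjusted p of 0.05 (0 of 31, edgeR quasi-likelihood test with Benjamini-Hochberg), and 2 had an unadjusted p under 0.05 (5.82% of all genes tested). D2hgdh, which oxidises D-2-hydroxyglutarate to 2-oxoglutarate, had 11.9, 10.2 and 10.4 CPM in wild type and 23.9, 19.6 and 13.8 in knockout. All knockout libraries were above wild type, as was so for 5.6% of all genes tested. The log2 fold change of D2hgdh was 0.82 ± 0.25 (SE), with an adjusted p of 0.842 (edgeR, Benjamini-Hochberg).

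Sdhaf1, an assembly factor of complex II that serves its iron-sulfur subunit, had 20.0, 15.9 and 15.9 CPM in wild type and 14.1, 7.46 and 10.4 in knockout. Here the knockout libraries were all below wild type, as was so for 4.67% of all genes tested. The log2 fold change of Sdhaf1 was -0.70 ± 0.28 (SE), with an adjusted p of 0.842 (edgeR, Benjamini-Hochberg).

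The authors' deposited table called 247 of the 13605 named genes at an adjusted p of 0.05 (1.82%) and none of the 30. Its smallest adjusted p among them was 0.617, for Idh1, with a log2 fold change of 0.56 ± 0.32 (SE). Of the 39 further genes, the authors' deposited table called 1, Glud1, with an adjusted p of 0.00647 and a log2 fold change of -0.68. Glud1 encodes the glutamate dehydrogenase that feeds 2-oxoglutarate into the cycle, and it is named after its values were seen. The terms of the authors' model are not stated in what was used here. Glud1 had 189.8, 159 and 106 CPM in wild type and 163, 69.1 and 70.1 in knockout. Knockout replicate 1 lay among the wild-type libraries, and with genotype as the only term the log2 fold change of Glud1 was -0.59 ± 0.33 (SE) with an adjusted p of 0.907 (edgeR, Benjamini-Hochberg).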

How the data were processed

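Libraries of liver Tregs were made with a SMARTer kit, per the labels' protocols. The authors deposited whole-number counts per gene, taken as raw because library totals differ. Cutadapt, STAR, DESeq2 and mm10 are listed in the submitters' processing notes, with no roles or versions. The sources used here do not give the counting tool, annotation or use of strand. Further columns are, per the file headers, a mean normalized count (a signal), a log2 fold change, a Wald score and p-values by the authors. No deposited mean was under 5.96, so the totals leave out low genes and are not full depths. In 18 of 13623 rows the gene name had become a date (0.2945% to 0.3078% of a library's counts), and these were left out. No row is named Altre (0 rows), so the labels were not checked by the targeted gene.

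The main test was the quasi-likelihood F test of edgeR 4.0.16 (R 4.3.3) with genotype alone, after TMM scaling and filterByExpr (12789 genes), with Benjamini-Hochberg adjustment. CPM use TMM-scaled library sizes. An SE is the fold change over the square root of F, and ratios use log2 CPM with a prior count of 2. DESeq2 1.42.0 and limma 3.58.1 gave alternatives. Ratios were tested by exact permutation (scipy 1.17.1). The edgeR test was also run on simulated counts with 200 changed genes and independent libraries. That run held no structure by replicate number and does not bear on pairing, and its outcome is not given here. Libraries of a genotype differed beyond sampling noise (chi-square per gene 40.0 to 72.5), so none is a second deposit of another and each was counted once; this does not show separate animals. Positions and exon lengths are from GENCODE M21 on GRCm38, the assembly of mm10, and promoters from RefSeq (GRCm38.p6).

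All members are named. Values of every library are given for members without overlap, for the smallest p and the highest mean of each role group, and for some others to show their spread; further pathway genes are named at an unadjusted p under 0.05. The result of 1 further pathway gene is not reported here. Members and lists were chosen with earlier results of these data known.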

Additional observations from a re-analysis of the deposited data

How the results depend on the processing

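Under all 14 alternatives (other tests, scalings and filters, the replicate block, and each library left out) 0 members were called in either direction, and the smallest adjusted p of any member was 0.632. The median log2 fold change of the members stayed between 0.016 and 0.083. Over all genes, DESeq2 called 46, edgeR with the replicate block 16, DESeq2 with the replicate block 247, and leaving out 1 library 0 to 1 (1 without knockout replicate 1), against 0 by edgeR. Of the further pathway genes DESeq2 with the replicate block called 1, Glud1 (log2 fold change -0.68, adjusted p = 0.00667), and these are close to the 247 calls and the Glud1 values of the authors' deposited table. Same-numbered libraries deviated together only weakly (correlations of 0.108, 0.0823 and 0.0239), although every library correlated best with its own number. The labels do not say whether a shared number means more than the number, and the main test took the libraries as unpaired. Direction held in every alternative for 15 members and turned in at least 1 for the other 15, whose log2 fold changes were 0.18 or less in size. When 1 library was left out those ran from -0.051 to 0.10 for Aco1, -0.050 to 0.039 for Idh3a, -0.0054 to 0.16 for Idh3b, -0.082 to 0.13 for Suclg1, -0.038 to 0.054 for Sucla2, -0.11 to 0.064 for Sdha, -0.12 to 0.017 for Sdhd, -0.045 to 0.25 for Fh1, -0.090 to 0.054 for Mdh1, -0.090 to 0.049 for Mdh2, -0.016 to 0.30 for Dlat, -0.077 to 0.20 for Pdk3, -0.14 to 0.22 for Pdp1, -0.19 to 0.084 for Mpc1 and -0.12 to 0.059 for Mpc2. Of those that kept their direction, the range was 0.078 to 0.24 for Cs, 0.15 to 0.40 for Idh2, 0.00067 to 0.15 for Idh3g, 0.064 to 0.29 for Ogdh, 0.079 to 0.28 for Dlst, 0.15 to 0.36 for Suclg2, -0.22 to -0.053 for Sdhb, 0.11 to 0.28 for Pdha1, 0.076 to 0.25 for Pdhb, 0.027 to 0.23 for Pdhx, 0.026 to 0.35 for Pdk2 and 0.042 to 0.52 for Pdpr, while Idh1, Dld and Sdhc moved by 1.5 times or less. With library totals only, Aco1 had -0.00040 and Sucla2 -0.0052, and with a mean count of 50 or more Sucla2 had -0.00024. Pdp1 had 0.0057 by DESeq2 with the replicate block, 0.0093 by edgeR with the replicate block, 0.0075 by limma-voom and 0.00078 without a filter. The log2 ratio difference ran from -0.063 to 0.025 for Mdh1 to Mdh2 and from -0.080 to 0.088 for Mpc1 to Mpc2 with 1 library left out. The cause was not tested. With 3 libraries a genotype, precision is limited most for Idh1, Pdpr and Pdp1.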
